A study of Mus musculus with 9 samples.

Results

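Retinas lacking Yap in Müller cells were compared with floxed controls at postnatal day 60 (P60) by bulk RNA sequencing, 1 library per frozen retina, in the 6 P60 libraries of a series of 9. The Yap CKO group (3 libraries, CKO 1 to 3) carried floxed Yap alleles and Rax-CreERT2, a tamoxifen-dependent Cre driven from Rax and directed at Müller cells. The control group (3 libraries) carried the floxed alleles without the Cre. Its genotype entry in the labels reads Yap CKO with no Cre, and the design text was followed. All P60 mice received 4-hydroxytamoxifen at P10 and were on a C57Bl6/J background. The library names of both P60 groups carry the letters MNU, which in this field stand for N-methyl-N-nitrosourea, an alkylating agent that kills photoreceptors. The labels give no treatment, dose or interval. No library of the same genotypes without MNU in its name was analysed here, so the comparison shows the difference between genotypes and not which share of it depends on the injury. The 3 libraries of the C57 group (wild type, P30) are set beside the P60 groups only as levels.

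Müller cells span the retina, supply neurons with metabolites, and clear glutamate and potassium. After photoreceptor death they become reactive: intermediate filaments, cytokines and chemokines are induced, and microglia and blood leukocytes are drawn in. YAP, encoded by Yap1, and its paralogue TAZ, encoded by Wwtr1, are coactivators that enter the nucleus when Hippo kinase activity is low or cell tension is high. They act mainly through TEAD factors, which often bind DNA beside AP-1.

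The P60 libraries held 34739679 to 37629264 counts. They differed in cell content as well as in genotype. The summed level of 20 rod markers was 28416, 6044 and 14802 CPM (counts relative to the TMM-scaled library size) in control 1, 2 and 3 and 30192, 16353 and 2111 CPM in CKO 1, 2 and 3. The groups overlapped, and CKO 3 was lowest. The summed level of 20 lens markers was 9.38 to 15.2 CPM in controls, 10.8 and 39.5 CPM in CKO 1 and 2 and 1649 CPM in CKO 3. Fibroblast markers (9 genes) summed to 265, 213 and 106 CPM in controls and to 61.6, 75.6 and 74.4 CPM in the CKO libraries. Ciliary epithelium markers (11 genes) summed to 209, 192 and 109 CPM in controls and to 112, 93.4 and 95.1 CPM in the CKO libraries. The fibroblast sum was therefore higher in every control than in any CKO library. Single fibroblast markers differed, with 3 of 7 tested positive and 2 higher and 3 lower at an unadjusted p under 0.05. By contrast, the ciliary sums of control 3 and CKO 1 were nearly equal. The summed level of retinal astrocyte markers (4 genes) was lower in every CKO library (86.5 to 124 CPM against 125 to 166 CPM in controls). Single astrocyte markers split, with 2 positive and 2 negative (median log2 fold change 0.03). The summed level of corneal and surface epithelium markers (10 genes) was also lower in every CKO library (5.27 to 6.51 CPM against 7.04 to 8.75 CPM). Dsg1a, which itself passed the test described below, held 2.101, 1.25 and 0.957 CPM of it in controls and 0.169 to 0.219 CPM in CKO. The separation of these sums depends on that gene, and of 5 tested members 2 were positive and 3 negative. Retinal ganglion cell markers (14 genes) were higher in every CKO library (3285 to 3630 CPM against 2903 to 3265 CPM). By Xist and Y-linked transcripts, all control retinas and CKO 3 were male and CKO 1 and 2 were female, so sex and genotype cannot be fully told apart. Defining markers of Müller glia were abundant and overlapped between groups (15 genes, 6880 to 7555 CPM in controls and 6712 to 8774 CPM in CKO). T cell markers (8 genes, 2.73 to 4.64 CPM) and neutrophil markers (8 genes, 0.345 to 0.874 CPM) were near 0 in all 6 libraries.

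**Figure D1:**
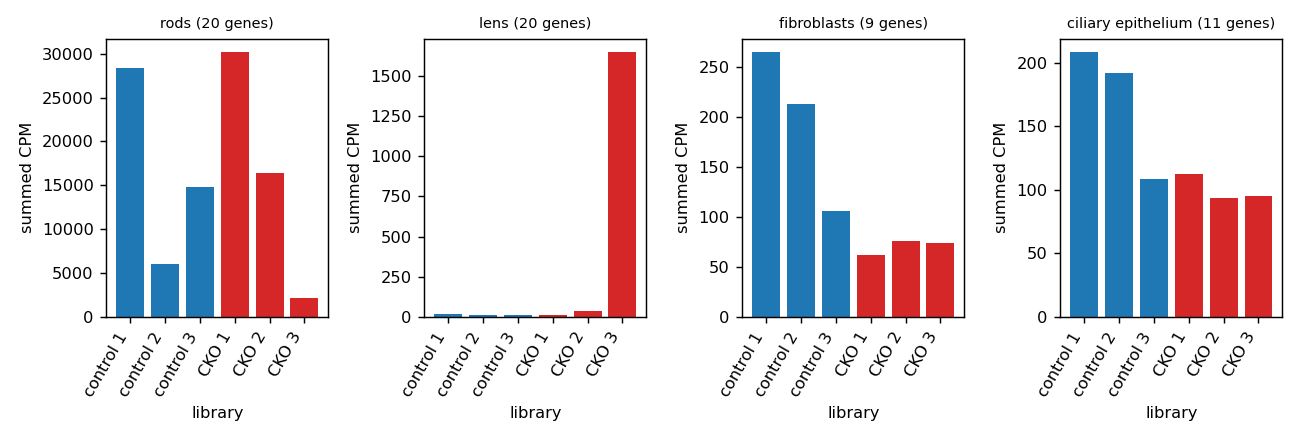
Summed CPM of the marker lists of rods, lens, fibroblasts and ciliary epithelium in each P60 library (bars, linear axes from 0; blue, control; red, Yap CKO). CKO 3 has the fewest rod reads (2111 CPM) and the most lens reads (1649 CPM), and all 3 controls have a higher summed fibroblast level than any CKO library.

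Expression of Yap1 was reduced and not absent, and 33 genes in all passed the test (0.2% of those tested). Yap1 stood at 71.6, 66.2 and 62.3 CPM in controls and at 16.4, 23.3 and 26.2 CPM in the CKO libraries, with no overlap (log2 fold change -1.60, SE 0.166, edgeR adjusted p = 0.0327). Since reads come from the whole retina, fewer cells expressing a gene and less RNA per cell cannot be told apart here or in any result that follows. Wwtr1, the paralogue, had 76.1, 79.0 and 72.8 CPM in the controls against 55.4, 56.5 and 51.2 CPM in the CKO libraries and narrowly missed the threshold (log2 -0.48, SE 0.0668, adjusted p = 0.0515). Rax, whose promoter drives the Cre, overlapped between groups (40.2, 21.7 and 25.4 CPM against 44.0, 34.4 and 30.9 CPM, adjusted p = 0.569). Of 16539 genes tested, 30 fell (0.181%) and 3 rose (0.0181%). At an unadjusted p under 0.05, 1530 genes were lower (9.25%) and 1420 higher (8.59%).

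The number of calls rested on single libraries. Leaving out CKO 3, the library with few rods and many lens reads, gave 656 higher (3.9%) and 817 lower (4.86%) genes, among them all 33. That fit sets 2 female CKO retinas against 3 male controls, so sex and genotype cannot be told apart in it. A sex covariate in all 6 libraries leaves the genotype difference to CKO 3 against the controls, since CKO 1 and 2 are both female. The log2 fold change of Yap1 was -1.35 in that fit. Leaving out control 1 or control 2 gave 0 calls in either direction, with 883 higher and 1152 lower genes at an unadjusted p under 0.05 without control 1 and 1005 and 1221 without control 2. Without CKO 1 there were 0 higher and 3 lower, without CKO 2 0 higher and 1 lower, and without control 3 2 higher and 51 lower. With the rod marker level as a covariate, 740 genes rose (4.47%) and 887 fell (5.36%), again among them all 33. DESeq2, another count model, called 360 higher and 559 lower. It made 49 false calls in the simulation described below, where edgeR made 14. The 33 genes kept their direction in each of these fits.

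**Figure D2:**
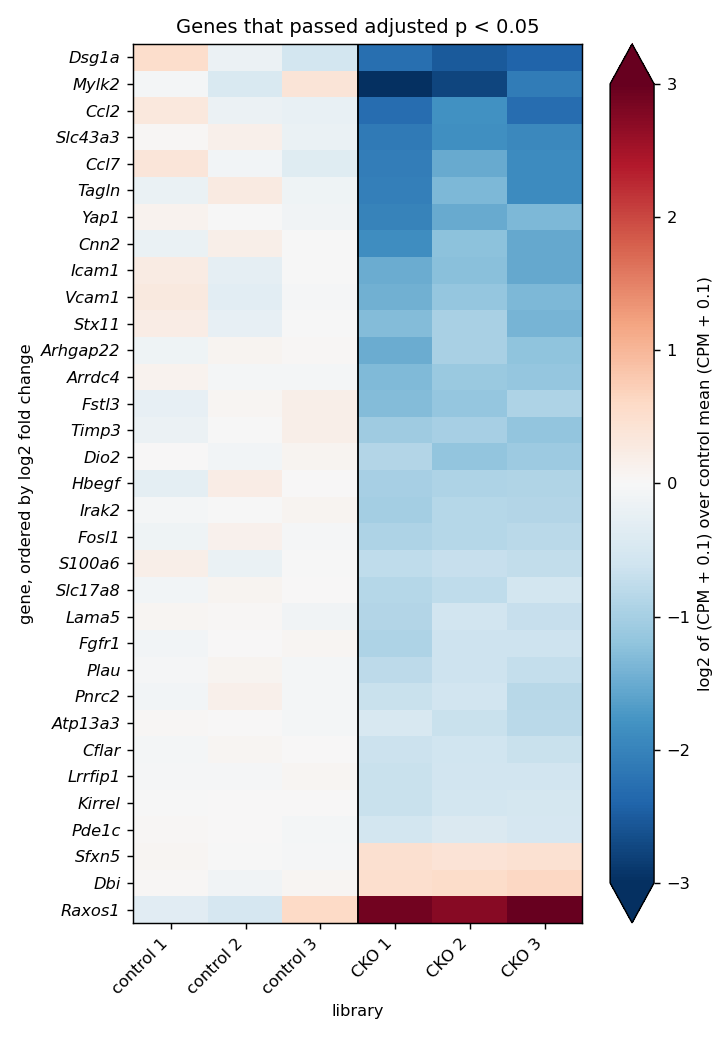
The 33 genes that passed adjusted p under 0.05, in rows ordered by log2 fold change, in the 6 P60 libraries (columns). Colour is the log2 ratio of CPM + 0.1 to the control mean + 0.1 (blue, lower; red, higher), and the groups do not overlap for any of the 33.

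RefSeq promoter windows (250 bases before to 50 after a start, GRCm38.p6) were found for 20 of the 33 genes and searched on both strands for a TEAD motif (GGAATG), an AP-1 motif (TGANTCA), a kappa-B consensus and a CArG box, the element bound by SRF. Atp13a3, Ccl2, Ccl7, Dsg1a, Fgfr1, Fosl1, Hbegf, Mylk2, Plau, Raxos1, Slc43a3, Tagln and Vcam1 had no window and were not searched. Of all 32851 windows, 14.7% held the TEAD motif, 7.81% the AP-1 motif, 4.51% the kappa-B consensus and 1.63% the CArG box. Among the 20 genes, 2 had the TEAD motif (Dio2 and Yap1), 1 the AP-1 motif (Pde1c), 1 the kappa-B consensus (Pde1c) and 2 the CArG box (Cnn2 and Arrdc4). A gene was counted if any of its windows held the motif, whereas the shares are per window, so the 2 are not directly comparable. The windows of Cnn2, Arrdc4 and Dio2 are shown as examples chosen after their values were seen. The windows of Yap1, the deleted gene, and Pde1c are not printed. Capitals mark the motif, a CArG box in Cnn2 and Arrdc4 and the TEAD motif in Dio2. A match describes the letters only.
Cnn2 (chr10:79988350-79988649, plus strand): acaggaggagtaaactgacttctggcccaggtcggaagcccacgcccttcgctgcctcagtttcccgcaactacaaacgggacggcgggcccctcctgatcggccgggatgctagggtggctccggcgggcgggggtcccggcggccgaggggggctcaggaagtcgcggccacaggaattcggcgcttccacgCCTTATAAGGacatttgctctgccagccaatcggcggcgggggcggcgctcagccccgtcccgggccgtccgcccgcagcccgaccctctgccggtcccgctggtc
Arrdc4 (chr7:68749189-68749488, minus strand): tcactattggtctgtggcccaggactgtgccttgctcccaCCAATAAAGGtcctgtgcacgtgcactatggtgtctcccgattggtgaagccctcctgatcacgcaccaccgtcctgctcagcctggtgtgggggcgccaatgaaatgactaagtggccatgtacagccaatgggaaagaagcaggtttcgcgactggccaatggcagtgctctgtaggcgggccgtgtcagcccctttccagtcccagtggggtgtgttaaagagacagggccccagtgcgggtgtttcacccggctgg
Dio2 (chr12:90738989-90739288, minus strand): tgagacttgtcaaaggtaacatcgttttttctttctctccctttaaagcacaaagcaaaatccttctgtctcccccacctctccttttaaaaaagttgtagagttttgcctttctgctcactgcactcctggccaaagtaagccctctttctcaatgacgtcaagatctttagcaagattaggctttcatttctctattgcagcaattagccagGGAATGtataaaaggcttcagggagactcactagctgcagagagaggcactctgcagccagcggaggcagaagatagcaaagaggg

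Genes of NF-kB, interleukin-1 and Toll-like receptor signalling were lower in the CKO retinas as a group, and 1 of them passed. Irak2, a kinase that relays interleukin-1 and Toll-like receptor signals to NF-kB, had 44.0, 45.4 and 48.4 CPM in controls and 22.5, 25.3 and 25.0 CPM in the CKO libraries (log2 -0.92, SE 0.0778, adjusted p = 0.0188). The lowest control lay well above the highest CKO library, and the gap was wide against the spread within either group. Of 30 tested members of the list, 25 had a negative log2 fold change and the median was -0.45, against 0.01 over all genes. At an unadjusted p under 0.05, 17 were lower and 0 higher, beside 9.25% and 8.59% of all genes. The groups did not overlap for 18 members, all lower in CKO, where 12.2% of all genes were lower without overlap.

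The members named next were lower in CKO and did not pass, and 5 of the 30 members of the list were positive. Tlr2, Ripk2 and Nfkbia were picked after their values were seen. Tlr2, a receptor for bacterial lipoproteins and damage signals, had 42.4, 23.0 and 29.7 CPM in controls and 9.26, 11.3 and 6.43 CPM in CKO (adjusted p = 0.0746). Ripk2, a kinase downstream of NOD receptors, had 29.2, 14.9 and 22.3 CPM against 9.02, 8.86 and 8.52 CPM (adjusted p = 0.0739), so the controls varied and the CKO libraries hardly did. Birc3, an NF-kB target that restrains cell death, had 12.2, 8.04 and 9.75 CPM against 2.95, 4.54 and 3.44 CPM (adjusted p = 0.0533). Nfkbie and Nfkbia encode NF-kB inhibitors and are themselves NF-kB targets. Nfkbie had 30.8, 20.8 and 26.2 CPM against 8.74, 11.4 and 13.8 CPM (adjusted p = 0.0714), and Nfkbia 103, 70.9 and 94.8 CPM against 55.2, 53.6 and 53.8 CPM (adjusted p = 0.0738).

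No subunit or cytokine of the list passed. Nfkb1, which encodes p50, had 68.7, 58.1 and 62.0 CPM in controls and 38.5, 46.7 and 35.6 CPM in CKO (adjusted p = 0.0714). Rel had log2 fold change -0.77 (adjusted p = 0.079) and Il1rap, the accessory chain of the interleukin-1 receptor, -0.50 (adjusted p = 0.0736). Il1a and Il1b, the interleukin-1 cytokines, were expressed at 5.14 CPM or less in every library, with log2 fold changes of -1.32 and -1.54 (adjusted p = 0.0746 and 0.0965). With the rod covariate 13 of the 30 members fell, beside 5.36% of all genes. Without CKO 3, 7 members fell, beside 4.86% of all genes. The list's median was -0.48 and -0.53 in these fits. Microglia also express Tlr2 and the interleukin-1 genes. Marker sums of homeostatic microglia (12 genes) were 97.8 to 107 CPM in controls and 104 to 119 CPM in CKO, and those of activated microglia and macrophages (14 genes) 322 to 396 CPM and 289 to 409 CPM, so neither was lower throughout in CKO.

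**Figure D3:**
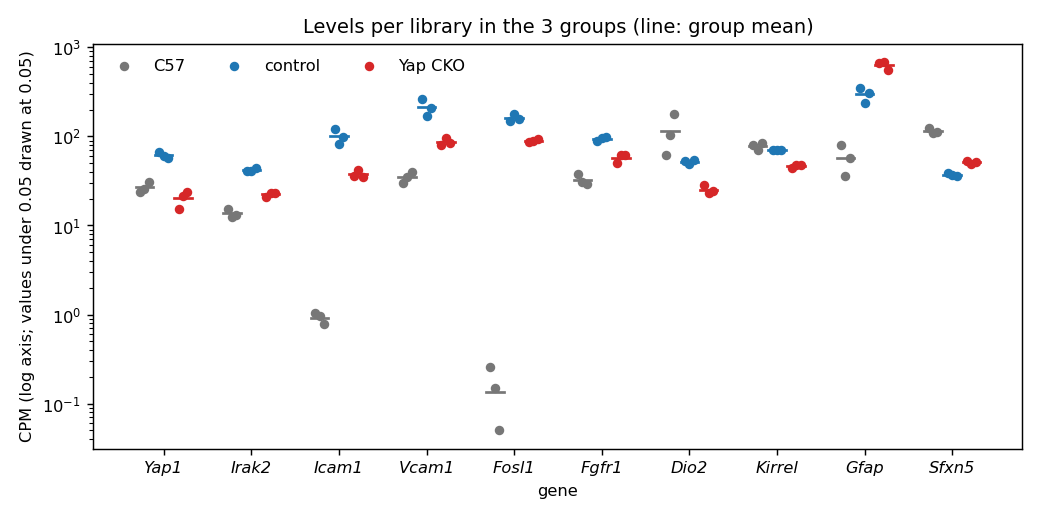
CPM of 10 genes in each library (points; log axis) of the C57 (grey), control (blue) and Yap CKO (red) groups, scaled over all 9 libraries, with the group mean as a line. Icam1 and Fosl1 are near 1 CPM or below in C57 and lower in CKO than in control, and Dio2 and Sfxn5 are higher in C57 than in either P60 group.

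Ccl2, Ccl7, Icam1 and Vcam1, which recruit or hold leukocytes, fell. Ccl2, which attracts monocytes, had 176, 125 and 120 CPM in controls and 28.7, 40.1 and 28.8 CPM in CKO, and Ccl7, its neighbour in the same chemokine cluster, 32.5, 23.8 and 19.5 CPM against 5.90, 8.86 and 6.75 CPM. Icam1, a ligand of leukocyte integrins, had 130, 90.6 and 108 CPM against 38.9, 45.9 and 37.9 CPM. Vcam1, the ligand of the Itga4 integrin, had 286, 188 and 228 CPM against 86.6, 104 and 91.2 CPM (log2 -1.31, SE 0.156, adjusted p = 0.0496). For each, control 1 was highest and every CKO library was below every control. Ccl2 and Ccl7 had the order of the summed fibroblast and ciliary epithelium markers over the controls, with control 1 highest and control 3 lowest, and the part of that tissue content in their fall was not tested. Among the 14 tested adhesion molecules and their integrins, these 2 ligands were the genes that passed, and the median of the list was -0.06. Itga4 had 24.8, 25.3 and 23.7 CPM against 17.5, 18.1 and 22.8 CPM (adjusted p = 0.184). Endothelial markers (8 genes) summed to 121 to 153 CPM in controls and 138 to 185 CPM in CKO.

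Antigen presentation genes had a median log2 fold change of -0.32 over 12 tested members, 9 of them negative. At an unadjusted p under 0.05, 4 were lower and 0 higher, beside 9.25% and 8.59% of all genes. None passed. Tapbp, a chaperone that loads peptides on class I molecules, had 143, 113 and 106 CPM in controls and 85.0, 80.0 and 90.2 CPM in CKO (adjusted p = 0.102). Complement genes had no such pattern, with 9 of 16 positive and 2 lower at an unadjusted p under 0.05. Within the interleukin-6 family, Lif, a cytokine released by Müller cells that protects photoreceptors, had 156, 198 and 197 CPM in controls and 93.6, 78.3 and 55.2 CPM in CKO (log2 -1.28, SE 0.204, adjusted p = 0.0738). Pim1, a STAT target, had 15.8, 17.8 and 16.8 CPM against 11.6, 11.6 and 12.6 CPM (adjusted p = 0.0746).

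Cnn2, Tagln and Mylk2, genes of the contractile cytoskeleton, fell. Cnn2, a calponin that stabilises actin filaments, had 26.9, 35.0 and 30.6 CPM in controls and 8.41, 13.1 and 10.5 CPM in CKO (log2 -1.53, SE 0.173, adjusted p = 0.0369). Tagln, an actin cross-linker, had 16.0, 22.4 and 16.9 CPM against 4.37, 7.22 and 4.91 CPM (adjusted p = 0.0496). Of 18 tested actin-associated genes, 14 were negative and 2 passed (median -0.32). At an unadjusted p under 0.05, 8 were lower and 0 higher, beside 9.25% and 8.59% of all genes. Vcl, encoding vinculin, had 58.3, 61.6 and 58.6 CPM against 42.6, 42.6 and 51.2 CPM, with CKO 3 nearest to the controls (adjusted p = 0.101). Myl9, a regulatory light chain of myosin, had 8.69, 7.80 and 8.61 CPM against 4.73, 4.34 and 7.13 CPM (adjusted p = 0.16). With sex as a covariate, which sets CKO 3 alone against the controls, the log2 fold change went from -0.39 to -0.22 for Vcl. For Myl9 it went from -0.63 to -0.23. Mylk2, a myosin light chain kinase, fell at a low level, from 3.32, 2.48 and 4.54 CPM to 0.273, 0.423 and 0.732 CPM (log2 -2.85, SE 0.373, adjusted p = 0.0496). Marker sums of pericytes and smooth muscle, which also express contractile genes, overlapped between groups (251 to 486 CPM in controls and 232 to 552 CPM in CKO).

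Among regulators of cell shape and matrix attachment, Arhgap22 and Lama5 fell. Arhgap22, which switches off Rac, fell from 22.7, 26.1 and 25.3 CPM to 8.80, 12.5 and 10.7 CPM (adjusted p = 0.0327). Rock1, a kinase that activates myosin, had 47.6, 47.4 and 44.8 CPM against 37.2, 38.1 and 33.0 CPM (adjusted p = 0.0908). Of 18 integrin and focal adhesion genes, 15 were negative and none passed (median -0.20). At an unadjusted p under 0.05, 6 were lower and 0 higher, beside 9.25% and 8.59% of all genes. Itgav, the integrin chain that binds latent TGF-beta and vitronectin, had 337, 272 and 293 CPM in controls and 176, 181 and 200 CPM in CKO (log2 -0.70, SE 0.0967, adjusted p = 0.0515). Its partner Itgb8 had 170, 150 and 162 CPM against 76.9, 70.7 and 111 CPM, with CKO 3 again nearest to the controls (log2 -0.90, adjusted p = 0.0873, and -0.53 with sex as a covariate, adjusted p = 0.0655). Lama5, a laminin chain of basement membranes, fell from 49.3, 48.5 and 44.0 CPM to 25.7, 31.5 and 29.4 CPM (adjusted p = 0.0496).

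Among matrix proteases and their inhibitors, 2 of 23 tested genes passed. Timp3, an inhibitor of metalloproteinases bound to matrix, had 324, 363 and 412 CPM in controls and 175, 182 and 162 CPM in CKO. Plau, the urokinase-type plasminogen activator, had 14.99, 16.2 and 14.8 CPM against 8.88, 9.93 and 9.36 CPM (log2 -0.71, SE 0.0956, adjusted p = 0.0496). An inhibitor and a protease thus fell together. Plaur, the receptor of Plau, had 16.9, 23.4 and 17.5 CPM against 10.96, 13.6 and 8.57 CPM (adjusted p = 0.115). Mmp12, a macrophage elastase, had the opposite direction at a low level, with 2.70, 3.71 and 2.26 CPM in controls and 6.61, 10.6 and 9.06 CPM in CKO (log2 1.60, SE 0.237, adjusted p = 0.0553). In the list (median -0.24), 9 members were lower and 3 higher at unadjusted p under 0.05, beside 9.25% and 8.59% of all genes.

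Fgfr1, Hbegf and Fstl3 were the growth factor genes described here that fell. Fgfr1, a receptor for fibroblast growth factors, had 97.2, 104 and 107 CPM in controls and 54.4, 67.2 and 66.9 CPM in CKO (log2 -0.71, SE 0.0941, adjusted p = 0.0496), and was the single gene of 13 tested FGF ligands and receptors to pass. Hbegf, a ligand of the EGF receptor, fell from 143, 207 and 178 CPM to 88.3, 92.9 and 94.2 CPM, so the CKO libraries were close together and the controls were not. Fstl3, a secreted inhibitor of activin, fell from 10.2, 12.7 and 13.7 CPM to 4.92, 5.39 and 6.37 CPM (adjusted p = 0.0496), as 1 of 32 tested genes of TGF-beta, activin and BMP signalling. In that list 26 were negative and the median was -0.14. At an unadjusted p under 0.05, 9 were lower and 1 higher, beside 9.25% and 8.59% of all genes. Smad3, a transducer of TGF-beta and activin, had 218, 212 and 214 CPM against 138, 147 and 196 CPM (log2 -0.42, adjusted p = 0.158). Its log2 fold change was -0.13 with sex as a covariate, which sets CKO 3 alone against the controls. Id1, a target of BMP signalling, was the member with the opposite direction at an unadjusted p under 0.05 (11.4, 15.3 and 14.5 CPM against 18.7, 23.3 and 18.2 CPM, adjusted p = 0.127). Of 33 Wnt genes, 25 were negative and none passed (median -0.14).

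Several genes outside these pathways fell with small spread. Arrdc4, an alpha-arrestin that promotes removal of glucose transporters from the membrane, had 35.7, 32.0 and 31.6 CPM in controls and 13.2, 15.4 and 14.7 CPM in CKO (log2 -1.20, SE 0.0909, adjusted p = 0.0188), and was the 1 of 5 tested alpha-arrestins to pass. Dio2, the deiodinase that makes active thyroid hormone, had 57.1, 53.5 and 59.7 CPM against 30.9, 25.0 and 26.7 CPM (log2 -1.04, SE 0.094, adjusted p = 0.0188), and was the 1 of 7 thyroid hormone genes to pass. Slc17a8, the vesicular glutamate transporter VGLUT3, had 88.9, 99.8 and 94.8 CPM against 52.5, 56.1 and 64.4 CPM (log2 -0.71, adjusted p = 0.0496). In the retina VGLUT3 is known from a class of amacrine cells, and the summed markers of amacrine and horizontal cells (14 genes) were 1528 to 1629 CPM in controls and 1406 to 1881 CPM in CKO.

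Cflar, an inhibitor of caspase-8, had 82.9, 90.5 and 87.6 CPM in controls and 55.7, 57.6 and 54.3 CPM in CKO (log2 -0.64, SE 0.0623, adjusted p = 0.0214). Lrrfip1, a nucleic acid-binding protein, had 109, 109 and 116 CPM against 70.3, 74.7 and 74.2 CPM (adjusted p = 0.0222). Kirrel, an adhesion molecule of the nephrin family, had the smallest control SD relative to its mean of the 33 (76.3 ± 0.705 CPM, n = 3), with 75.5, 76.9 and 76.5 CPM against 48.0, 52.1 and 52.5 CPM (log2 -0.58, SE 0.0617, adjusted p = 0.0242). All 3 genes separated the groups by changes of 1.5 to 1.56-fold. Atp13a3, a polyamine transporter (log2 -0.65), Pnrc2, a factor of mRNA decay (-0.69), and Pde1c, a phosphodiesterase (-0.50), passed at adjusted p = 0.0496. S100a6, a calcium-binding protein (-0.73), and Stx11, a syntaxin of immune cell secretion (-1.23), passed at the same value. Fosl1, an AP-1 subunit, fell from 162, 194 and 173 CPM to 93.4, 96.9 and 101 CPM. Slc43a3, a nucleobase transporter, and Dsg1a, a desmosomal cadherin, fell at levels of at most 4.36 and 2.101 CPM.

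The genes that rose were few. Sfxn5, a mitochondrial carrier of the sideroflexin family, had 42.0, 40.1 and 39.7 CPM in controls and 56.97, 54.1 and 55.6 CPM in CKO (log2 0.45, SE 0.0614, adjusted p = 0.0496). Dbi, an acyl-CoA-binding protein, had 174, 157 and 176 CPM against 238, 247 and 261 CPM (log2 0.56, SE 0.0733, adjusted p = 0.0496). Raxos1, a transcript on the opposite strand at the Rax locus, had 0.312, 0.273 and 0.691 CPM against 3.80, 3.41 and 4.34 CPM. It lies at the gene whose promoter drives the Cre transgene, and reads of the 2 strands may not have been separated in counting, so its source was not tested. Gfap, the intermediate filament of reactive glia, had 382, 259 and 340 CPM in controls and 714, 741 and 601 CPM in CKO (log2 1.07, SE 0.151, adjusted p = 0.0533). The groups did not overlap. With sex as a covariate, which sets CKO 3 alone against the controls, the log2 fold change of Gfap was 0.88. Of 8 tested glial intermediate filament genes, 4 were positive (median 0.02) and none passed.

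Neuropeptide genes went both ways. Npy had 11.6, 15.9 and 13.8 CPM in controls and 29.6, 25.6 and 23.98 CPM in CKO (log2 0.94, SE 0.134, adjusted p = 0.0533). Penk, which encodes enkephalins, had 247, 158 and 134 CPM against 39.2, 42.1 and 60.1 CPM (log2 -1.93, SE 0.294, adjusted p = 0.0746). Of the 10 tested neuropeptides, 4 were higher and 1 was lower at an unadjusted p under 0.05, beside 8.59% and 9.25% of all genes. Bipolar cell genes also split: Pcp2 had 110, 114 and 115 CPM against 141, 156 and 150 CPM (adjusted p = 0.0646), while Trpm1, the ON bipolar channel, had 500, 469 and 569 CPM against 349, 387 and 441 CPM (adjusted p = 0.143).

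Barrier and ciliary-type transcripts were low in all CKO libraries and uneven among the controls. Cldn2, a claudin of leaky epithelia, had 17.0, 12.02 and 5.50 CPM in controls and 0.984, 1.04 and 0.841 CPM in CKO (log2 -3.58, SE 0.446, adjusted p = 0.0533). Edn3, an endothelin ligand, had 3.63, 3.38 and 1.28 CPM against 0.246, 0.395 and 0.298 CPM (adjusted p = 0.0578). Ogn, a fibroblast proteoglycan, had 13.7, 12.3 and 4.97 CPM against 1.09, 0.564 and 1.49 CPM (adjusted p = 0.0746). For each, control 3 was the lowest control, as in the sums of fibroblast and ciliary epithelium markers. Of 10 tested ciliary epithelium markers, 9 were negative and none passed (median -0.72). At an unadjusted p under 0.05, 7 were lower, beside 9.25% of all genes. Penk followed the same order over the controls. Of the 30 genes that fell, 8 also had control 1 highest and control 3 lowest (26.7%, against 11.3% of all tested genes): Arrdc4, Atp13a3, Ccl2, Ccl7, Dsg1a, Lama5, Pde1c and Yap1. This order was counted after the values were seen. The part of dissection or tissue content in these genes was not tested.

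Genes of protein synthesis and respiration were slightly higher in the CKO retinas. All 78 tested cytosolic ribosomal protein genes had a positive log2 fold change (median 0.30). At an unadjusted p under 0.05, where 8.59% of all genes were higher, 72 of the ribosomal genes were. Reads of these genes can be shared with near-identical pseudogenes, so single members are uncertain. Of 79 nuclear-encoded oxidative phosphorylation genes, 78 were positive (median 0.27) and 63 higher. Of 74 mitochondrial ribosome genes, 72 were positive (median 0.19) and 34 higher, and of 38 proteasome genes 34 were positive (median 0.14) and 15 higher. None of these passed at adjusted p under 0.05 with 6 libraries. With the rod covariate 51 ribosomal, 63 respiratory, 22 mitochondrial ribosome and 7 proteasome genes rose, against 4.47% of all genes. Cox6a1, a subunit of cytochrome oxidase, had 106, 104 and 107 CPM in controls and 135, 134 and 132 CPM in CKO (log2 0.34, SE 0.0546, adjusted p = 0.0646). Mrpl52 had 31.7, 31.3 and 30.7 CPM against 41.9, 45.8 and 42.2 CPM (log2 0.47, adjusted p = 0.0533). With the length offset described next, the log2 fold change was 0.10 for Cox6a1 (adjusted p = 0.545) and 0.28 for Mrpl52 (adjusted p = 0.155). Of the 13 genes encoded by mitochondrial DNA, 10 were positive (median 0.10, 1 higher and 1 lower at unadjusted p under 0.05).

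These genes are short, and the fold change ran with transcript length across all protein-coding genes. The median log2 fold change was 0.27 for 273 genes with up to 1000 bases of exon, 0.17 for 1529 genes of 1001 to 2000 bases, -0.00315 for 3612 genes of 4001 to 6000 bases and -0.12 for 2655 genes of over 8000 bases. An offset fitted on length in each library, chosen after seeing the data, lowered the medians to 0.17 for the cytosolic ribosome, 0.11 for oxidative phosphorylation, 0.11 for the mitochondrial ribosome and 0.08 for the proteasome. The offset was fitted in these same libraries, with these genes among those that set it, so part of that shift follows from the fit. With the offset 77 of 78, 70 of 79, 66 of 74 and 25 of 38 members were positive, and the numbers higher at an unadjusted p under 0.05 were 39, 23, 19 and 2. Over all 16539 tested genes, 8367 were positive and 958 were higher at that p with the offset. Of the 13 genes of mitochondrial DNA, 1 was positive with it. The NF-kB list, whose members have a median exon length of 4150 bases, had a median of -0.42 with the offset against -0.45 without it. With the offset, 2 genes were higher and 20 lower, 22 of them among the 33. The genes that no longer passed were Cflar, Pde1c, Vcam1, Stx11, Dbi, Lama5, Mylk2, Fgfr1, Dsg1a, Atp13a3 and Hbegf (adjusted p = 0.051 to 0.125), and the log2 fold change of Pde1c went from -0.50 to -0.31. Whether RNA integrity differed between the groups was not tested.

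**Figure D4:**
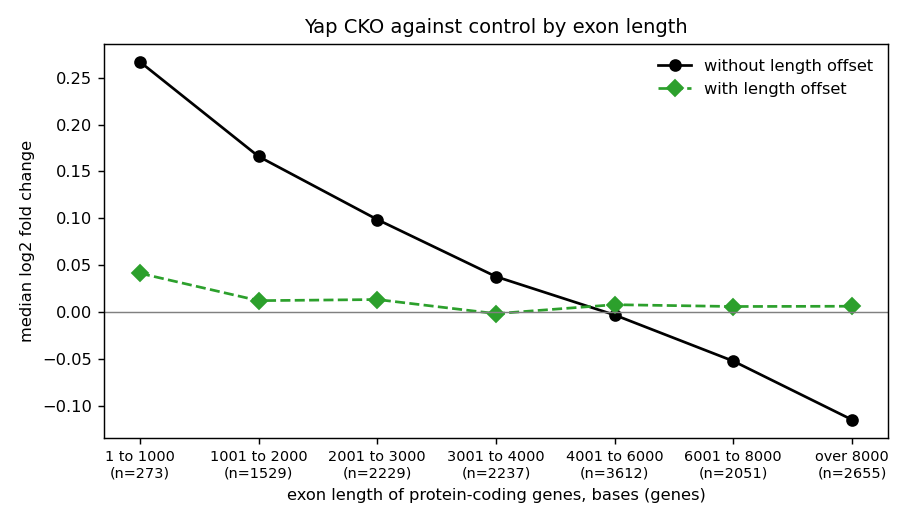
Median log2 fold change of protein-coding genes (Yap CKO against control) in 7 classes of exon length, without (black) and with (green) a length offset. Without the offset the median goes from 0.27 in the shortest class to -0.12 in the longest. The offset was fitted on length in these same libraries, so the classes near 0 with it follow from the fit.

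**Figure D5:**
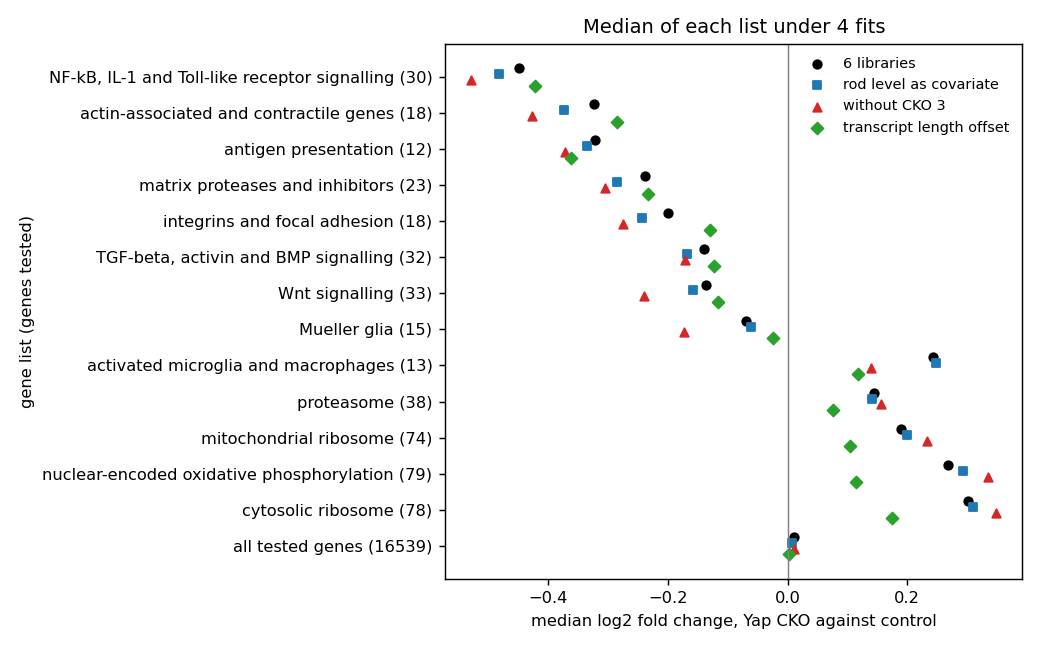
Median log2 fold change of 13 gene lists and of all tested genes (rows, number tested in brackets) with all 6 libraries, with the rod level as covariate, without CKO 3 and with the length offset (symbols). The NF-kB list stays between -0.53 and -0.42, while the 4 lists of short genes at the bottom move toward 0 with the offset. The offset was fitted on these same libraries.

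Several other lists had no call, most of them with medians near 0. Among Müller glia markers, 10 of 15 were negative (median -0.07), with 2 higher and 2 lower at unadjusted p under 0.05. Notch genes (20 tested, median 0.04), retinal progenitor and proneural factors (19, median -0.03), p53 target genes (17, median -0.03), heat shock chaperones (11, median 0.03) and clock genes (16, median -0.06) were divided between the directions. Glial transport genes for ions, water and transmitters had 16 of 19 negative and a median of -0.13. At an unadjusted p under 0.05, 2 of them were lower, beside 9.25% of all genes. Neurog2, a proneural factor, had 12.04, 19.2 and 15.7 CPM in controls and 19.5, 25.5 and 35.6 CPM in CKO (adjusted p = 0.202), with the highest value in CKO 3. A p that missed the threshold does not show that these genes were equal between genotypes.

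Levels in the C57 retinas place these differences beside a retina without MNU in its name. C57 differed from both P60 groups in age, the floxed alleles, tamoxifen, source series and depth (13760765 to 16808499 counts), so no cause can be assigned, and values are CPM scaled over all 9 libraries. Icam1 averaged 0.924 CPM in C57, 100.5 CPM in control and 37.6 CPM in CKO, and Ccl2 0.0247, 129 and 29.9 CPM. Fosl1 averaged 0.135, 162 and 89.3 CPM. For such genes the CKO mean lay between the other groups and far above C57. Yap1 averaged 26.9 CPM in C57, 61.2 CPM in control and 20.2 CPM in CKO. Kirrel averaged 78.1, 69.96 and 46.8 CPM and Dio2 114, 52.05 and 25.3 CPM, so for these the CKO mean lay farther from C57 than the control mean did. Sfxn5 averaged 115, 37.2 and 51.1 CPM and was nearer to C57 in CKO, whereas Gfap averaged 57.65, 300.1 and 630.4 CPM and was farther from it.

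For this contrast the authors' deposited table holds 305 genes with their own log2 fold changes and adjusted p-values. It is an already selected list, with raw p of at most 0.0489 and absolute log2 fold changes of at least 0.59, in which 231 genes are negative (75.7%) and 156 have an adjusted p under 0.05 (51.1%). It lists 27 of the 33 genes, 26 of them with an adjusted p under 0.05. In the authors' deposited table Irak2 has a log2 fold change of -0.91 and Dio2 of -1.03 (adjusted p = 1.29e-06 and 0.0174). The authors' deposited table lists 12 of the 30 NF-kB members, all negative and 10 of them with an adjusted p under 0.05. Its values come from the same libraries and are no separate replication.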

How the data were processed

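Whole-retina libraries were made from 1 µg of RNA with a directional TruSeq protocol, per the labels' protocols. Reads were processed with HISAT2 2.1.0 and featureCounts on GRCm38, and edgeR was used, per the submitters' processing notes. The strand setting of counting is not given in the sources used here. The deposited table holds whole-number read counts, not normalized, for 47729 genes, of which 47224 had a symbol. The authors' deposited comparison gives log2 fold changes with raw and adjusted p-values for 305 genes, per the file headers. Its 9 columns of per-library values and 8 of group means were not used.

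The 6 P60 libraries were fitted alone: filterByExpr (minimum count 10, minimum total 15), TMM scaling, edgeR 4.0.16 quasi-likelihood F-tests (two-sided, robust, R 4.3.3), Benjamini-Hochberg adjustment over 16539 genes, threshold 0.05. CPM are TMM-scaled. Every adjusted p is from edgeR unless another tool is named. Alternatives were other scalings, filters and thresholds, DESeq2 1.42.0, limma 3.58.1 voom, all 9 libraries, a replicate block, covariates for rod level and sex, leaving out each library, and, chosen after seeing the data, a length offset (lowess span 0.5, GENCODE M21 exon unions, 16484 genes). Counts were also simulated from the means and dispersions of this comparison (16377 genes), independently per library, with changes in genes of at least 1 CPM. The share of changes found by edgeR was 41.8% at 1.5-fold, 83.6% at 2-fold and 98.5% at 4-fold, with 14 false calls. DESeq2 found 59.7%, 86.6% and 98.5%, with 49 false calls. The patterns of rod content, lens reads, sex and transcript length shared across genes were not simulated. These shares may therefore not hold for the real comparison.

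Named were Yap1, Wwtr1, Rax and all genes that passed. Further genes came from a rule of the next 10 per direction and up to 4 members per list by smallest p. Only some of those are described, and for several lists, such as complement, Notch and Wnt, no member is named. Tlr2, Nfkbia, Il1rap, Ripk2, Il1a, Il1b, Rel, Myl9, Id1, Smad3 and Plaur fall outside that rule and were named after their values were seen. Members and lists were chosen with earlier results of these data known. Each library is a separate retina. Different animals are not stated, so p-values measure the spread between these samples. Libraries of the same group differed by more than sampling noise (chi-square per degree of freedom 27.7 to 145). One C57 column carries a number that no description shares and was kept as an unnumbered C57 library. Its place rests on its name.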

Additional observations from a re-analysis of the deposited data

How the results depend on the processing

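The counts of 3 higher and 30 lower genes depended on the processing, while each of the 33 genes kept its direction in every alternative that tested it. Higher and lower genes numbered 1 and 14 with RLE scaling, 3 and 14 with upper-quartile scaling, 1 and 14 with a filter of 1 CPM in 3 libraries, 1 and 15 with limma-voom, 1 and 14 with bias-adjusted deviances, and 83 and 260 with no count filter. They numbered 360 and 559 with DESeq2, 3 and 57 with all 9 libraries, 740 and 887 with the rod covariate, 43 and 24 with the sex covariate, and 2 and 20 with the length offset. The looser threshold of adjusted p under 0.10 gave 113 and 257, and a 1.5-fold minimum 1 and 28. Leaving out 1 library gave 0 to 656 higher and 0 to 817 lower genes.

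With the replicate block there were 3 higher and 42 lower genes, and Yap1 had log2 fold change -1.62 with an adjusted p of 0.0732. Same-numbered deviations correlated at 0.529, -0.0783 and 0.0106. Those of control 2 and CKO 3, each the lowest of its group in rod markers, correlated at 0.492. The correlations therefore cannot show whether same-numbered retinas were handled together. The log2 fold change of Yap1 was -1.35 with the sex covariate and -1.75 to -1.43 when 1 library was left out (adjusted p 0.0131 to 0.167). CKO 3 is the only male CKO library, so with the sex covariate the genotype effect is CKO 3 against the controls. That effect cannot be told apart from other traits of CKO 3, such as its few rods and many lens reads. Log2 fold changes moved both ways in that fit. Those of Yap1, Vcl, Myl9, Itgb8, Smad3 and Gfap became smaller in size. Others became larger, such as Lif (from -1.28 to -1.735), Tlr2 (from -1.81 to -2.30) and Plaur (from -0.81 to -1.17). Nfkb1 went from -0.64 to -0.82 and Neurog2 from 0.78 to 1.19. Upper-quartile scaling put the median of all genes at 0.05, against 0.01 with TMM. The causes of these shifts were not tested. Depth was 34739679 counts or more in each P60 library, so counting error is small for genes above a few CPM, and the 3 libraries per group limit the precision.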
